A study of Canis lupus familiaris with 7 samples.

Results

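The genes of bone resorption were followed through RNAseq of canine osteosarcoma (OSA). The group was defined by symbol and held the subunits of the vacuolar proton pump (symbols starting with ATP6V, plus TCIRG1), the cathepsins (CTS followed by 1 letter, CTSG left out) and named genes of osteoclasts and lysosomes, namely ACP5, TNFRSF11A, TNFSF11, TNFRSF11B, DCSTAMP, OCSTAMP, NFATC1, CLCN7, OSTM1, CA2, OSCAR, SNX10, SIGLEC15, LAMP1 and LAMP2. In total 49 of the 24580 genes in the table met this definition. CALCR and PLEKHM1 were named in the definition but matched no gene symbol, and they were not analysed here. Of the 49 genes, 43 reached a mean of 1 FPKM (fragments per kilobase of transcript, scaled to the mapped fragments of the library) over all samples and were tested, among 13507 tested genes.

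The samples were 4 specimens of grossly non-malignant bone (N1, N3, N8 and N9, here non-tumor) and 3 OSA tumors (T1, T3 and T10) from dogs, collected in veterinary practice when a limb was removed or the animal was put down. Non-tumor pieces came from bone next to a tumor, so they were not bone of healthy dogs. Age, breed and sex of each sample were not among the labels used here, and neither was a treatment. The tissue is described as matched and the numbers 1 and 3 occur in both groups, but nothing in the labels ties a number to 1 dog, so the groups were compared as unpaired. The p-values measured only the spread between these 7 specimens.

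An osteoclast is a giant cell formed when precursors of the monocyte lineage fuse. Osteoblast-lineage cells make RANKL (TNFSF11), which binds RANK (TNFRSF11A) on the precursor and switches on the transcription factor NFATC1, while the decoy receptor osteoprotegerin (TNFRSF11B) captures RANKL and restrains the process. The mature cell seals itself onto bone, pumps protons into the gap through a vacuolar ATPase (V-ATPase) that carries the a3 (TCIRG1) and d2 (ATP6V0D2) subunits, and secretes cathepsin K (CTSK), which cuts collagen in the acid. Most other V-ATPase subunits and cathepsins serve the lysosomes of every cell.

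The tissue pieces differed in make-up. Over 9 matched markers of skeletal muscle the summed FPKM was 75647 in N8 and 47023 in N9, 76.8 and 1307 in N1 and N3, and 6.09 to 9.06 in the tumors, with CKM listed at 0 in N9. The 7 granulocyte markers summed to 58269 in N3 and 65103 in N8 and to 67.5 to 1997 elsewhere, and the 9 erythroid markers to 2626 in N3 and 4663 in N8 and to 8.07 to 248 elsewhere. The 9 osteoblast markers summed to 11436 in T1, 6978 in N1 and 2777 in T10, against 67.5 to 798 in the other 4 samples, with the lowest sum in N8 and 239 in N9. By the test used for the group, 8 of 9 muscle, 5 of 7 granulocyte, 4 of 9 erythroid and 1 of 7 tested lymphocyte markers were lower in tumor, 1 of 9 osteoblast markers was higher, and none of 11 macrophage markers was called. SLC4A1 and HBM of the erythroid list were listed at 0 in at least 1 sample. No counts were analysed, so depth was known only relative to N1, from the spacing of the lowest FPKM values, and ran from 0.543 in N8 to 1.43 in T10.

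Between OSA and non-tumor bone, 2 of the 43 tested genes passed the threshold in limma, which asked for a log2 fold change of 1 or more in size and for p under 0.05 before adjustment. TNFRSF11B was higher in tumor and CA2 was lower. That is 4.65% of the group, beside 6.86% of all tested genes. The same 2 genes were the ones of the group with an unadjusted p under 0.05. No gene of the group had a Benjamini-Hochberg adjusted p under 0.05, and neither had any other tested gene, the smallest adjusted p being 0.693. The 4 non-tumor and 3 tumor values did not overlap for 1 of the 43 genes, TNFRSF11B, beside 5.85% of all tested genes. In 31 of the 43 the log2 fold change was smaller than its standard error (SE). The median log2 fold change was 0.05 over the group and -0.02 over all tested genes, with 25 values above 0 and 18 below.

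**Figure D1:**
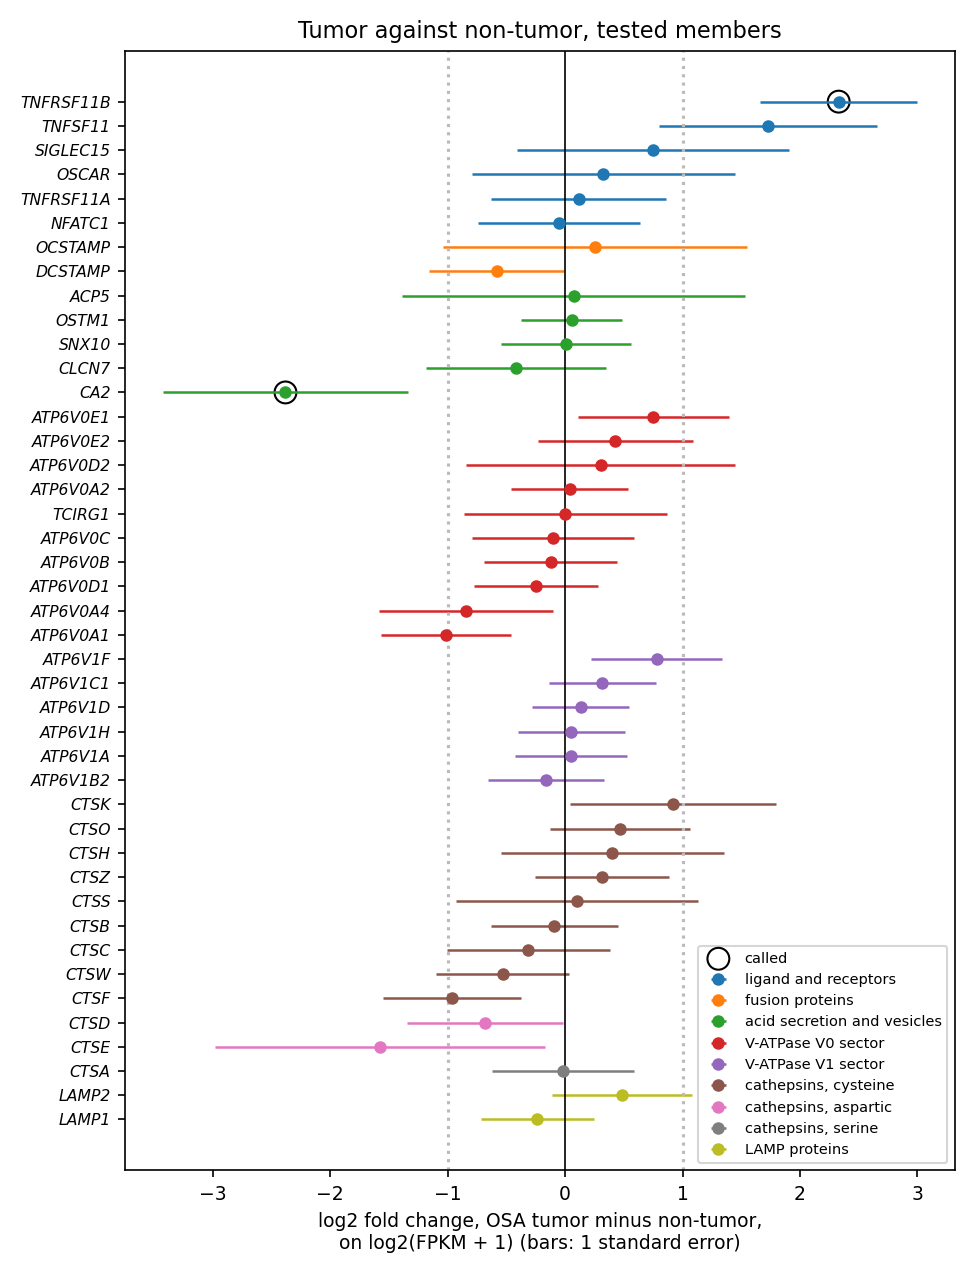
Log2 fold change, OSA tumor minus non-tumor on the log2(FPKM + 1) scale, for the 43 tested genes (y axis, coloured by role), with bars of 1 SE and dotted lines at the call threshold of 1. The circled points TNFRSF11B (2.33) and CA2 (-2.38) were called, and most other points lie within 1 SE of 0.

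Among the signals that start osteoclast formation, TNFRSF11B (ENSCAFG00000000834, CanFam3.1 chromosome 13, 18155274 to 18183416) stood at 2.05, 1.21, 0.804 and 1.44 FPKM in N1, N3, N8 and N9, and at 3.74, 9.25 and 32.3 FPKM in T1, T3 and T10. Each tumor was above each non-tumor sample, by little in T1 and by far in T10. The log2 fold change was 2.33 (SE 0.67, limma p = 0.00641, adjusted p = 0.693, exact permutation p = 0.0571, n = 4 and 3). The exact test was two-sided and 0.0571 is the smallest p that 4 against 3 samples allow. Calls in this direction were made for 3.28% of all tested genes, and groups apart in this direction were seen for 3.04%. The call was kept when any 1 sample was left out, with log2 fold changes of 1.58 to 2.98. It was lost, at 1.42, in a fit of only N1, N3, T1 and T3 that treated shared numbers as pairs. The muscle marker sums also separated the groups, lower in the tumors, and their part in this result was not tested.

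TNFSF11 (chromosome 22, 8226921 to 8258167, an interval shared with another gene) had 23.5, 14.5, 1.22 and 1.35 FPKM in N1, N3, N8 and N9, and 23.9, 36.7 and 10.4 FPKM in T1, T3 and T10. The low values were those of N8 and N9, the samples with the most muscle marker RNA and the least osteoblast marker RNA, while the highest was that of T3, whose osteoblast marker sum of 516 was below that of N3 (798). The part of tissue make-up in these levels was not tested. N1 and N3 lay inside the tumor range. The log2 fold change of 1.73 (SE 0.93) did not pass the threshold (limma p = 0.0951, exact permutation p = 0.229). Without N1 it passed, at a log2 fold change of 2.35, in a fit that called 14.9% of all tested genes and 6 of the group.

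The level of RANKL against that of its decoy was taken within each sample, as log2(FPKM + 1) of TNFSF11 minus that of TNFRSF11B. This difference was 3.0, 2.81, 0.30 and -0.05 in N1, N3, N8 and N9, and 2.39, 1.88 and -1.55 in T1, T3 and T10. It was largest in N1 and N3 and fell below 0 in N9 and T10, so the groups overlapped. The tumor mean was -0.61 from the non-tumor mean on the log2 scale (exact permutation p = 0.686, adjusted over 4 such ratios 0.914), and it was 0.62 above it without T10. In plain FPKM, TNFSF11 stood at 12 times TNFRSF11B in N3 and 0.322 times in T10.

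The receptor TNFRSF11A was low throughout, at 4.65, 1.5, 0.587 and 2.54 FPKM in the non-tumor samples N1, N3, N8 and N9 and at 8.41, 0.391 and 1.58 FPKM in T1, T3 and T10. NFATC1, the transcription factor that it activates, was at 19.9, 6.79, 11.1 and 12.3 FPKM in the non-tumor samples and at 37.7, 5.63 and 6.30 FPKM in the tumors. Both were highest in T1 and second in N1. Their log2 fold changes were 0.12 (SE 0.74) for TNFRSF11A and -0.05 (SE 0.69) for NFATC1. The interval of TNFRSF11A was shared with another gene.

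OSCAR, a co-stimulatory receptor of osteoclast precursors that recognises collagen, showed the same pair on top more steeply. It was at 12.5 FPKM in N1 and 33.7 FPKM in T1, while the other 5 samples lay between 0.602 and 2.79 FPKM. SIGLEC15, a sialic acid receptor of the same signalling axis, had 5.27 FPKM in N1 and 21.4 FPKM in T1. In the other 5 samples SIGLEC15 was at most 0.148 FPKM, and it was listed at 0 in N8, T3 and T10. The log2 fold changes between the groups were 0.32 (SE 1.12) for OSCAR and 0.75 (SE 1.16) for SIGLEC15.

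The fusion proteins followed. OCSTAMP, a membrane protein needed for precursor fusion, was at 14.3 FPKM in N1 and 23.6 FPKM in T1, at most 0.851 FPKM elsewhere, and listed at 0 in N8 and T10. DCSTAMP, its partner in fusion, was low everywhere, at 2.23, 1.54, 1.84 and 0.886 FPKM in N1, N3, N8 and N9 and at 2.53, 0.347 and 0.0665 FPKM in T1, T3 and T10. T1 and N1 were again the 2 highest, but for DCSTAMP the other non-tumor samples came close behind. Neither gene passed the threshold, with log2 fold changes of 0.26 (SE 1.29) for OCSTAMP and -0.58 (SE 0.58) for DCSTAMP.

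The secreted products of resorption had the 2 highest mean levels of the group, carried by T1 and N1. CTSK (chromosome 17, 59929302 to 59936715) had 1010, 431, 140 and 281 FPKM in N1, N3, N8 and N9 and 2008, 322 and 498 FPKM in T1, T3 and T10. ACP5, the tartrate-resistant acid phosphatase used to stain osteoclasts (chromosome 20, 49813686 to 49817040), had 563, 140, 38.4 and 64.0 FPKM in the non-tumor samples and 1291, 127 and 11 FPKM in the tumors. The highest and the lowest ACP5 value were both tumors, T1 and T10, 117-fold apart, and outside N1 and T1 ACP5 stood below CTSB. For CTSK the span was 14.3-fold. T10 kept the third highest CTSK but had the lowest ACP5 of the 7 samples.

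The comparison of groups for these genes moved with single samples. The log2 fold change of ACP5 was 0.07 (SE 1.46, limma p = 0.961, exact permutation p = 1), and it was -1.61 without T1 and 1.77 without T10. For CTSK it was 0.92 (SE 0.87, limma p = 0.319, exact permutation p = 0.343), and it was 0.14 without T1 and 1.46 without T3. The 5 largest spans over the samples, on the log2(FPKM + 1) scale, were those of ACP5 (6.75), CTSE (5.74), CA2 (5.44), ATP6V0D2 (4.69) and OCSTAMP (4.62). The span of ACP5 was wider than that of 97.7% of tested genes. The median span was 2.29 over the 43 genes and 2.25 over all tested genes.

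The acid secretion genes were mixed. CLCN7, the chloride-proton exchanger of the resorbing membrane, had 34.6, 14.8, 17.2 and 11.9 FPKM in the non-tumor samples N1, N3, N8 and N9 and 54.1, 5.47 and 7.11 FPKM in T1, T3 and T10. T3 and T10 were its lowest values, and with T1 left out CLCN7 passed the threshold as lower in tumor, at a log2 fold change of -1.40 in place of -0.42 (SE 0.77). The interval of CLCN7 was shared with another gene. OSTM1, the partner subunit that stabilises CLCN7 and sits with it in lysosomes of many cells, stayed between 13.7 and 24.0 FPKM. SNX10, a sorting protein of vesicle traffic, stayed between 7.59 and 29.9 FPKM. Their log2 fold changes were 0.06 (SE 0.43) and 0.01 (SE 0.56), and T1 and N1 were not the 2 highest for either.

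CA2 (ENSCAFG00000025202, chromosome 29, 31959123 to 31975411), the carbonic anhydrase that supplies protons in osteoclasts and is also a major enzyme of red blood cells, had 13.4, 275, 182 and 25.6 FPKM in N1, N3, N8 and N9 and 23.9, 12 and 5.35 FPKM in T1, T3 and T10. The high values were those of N3 and N8, and N1 and N9 lay near T1. The log2 fold change was -2.38 (SE 1.04, limma p = 0.0471, adjusted p = 0.693; exact permutation p = 0.114), and 3.58% of all tested genes were called lower. The call was lost without N3 (-1.70), without N8 (-1.89), without T3 (-2.40) and without T10 (-1.88). It was also lost, at -1.81, in the fit of only N1, N3, T1 and T3 that treated shared numbers as pairs. N3 and N8 were also the samples with the highest erythroid and granulocyte marker sums, and the part of these cells in the result was not tested. In these bulk samples fewer cells of a type and less RNA per cell cannot be told apart, here and for each gene of the group.

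**Figure D2:**
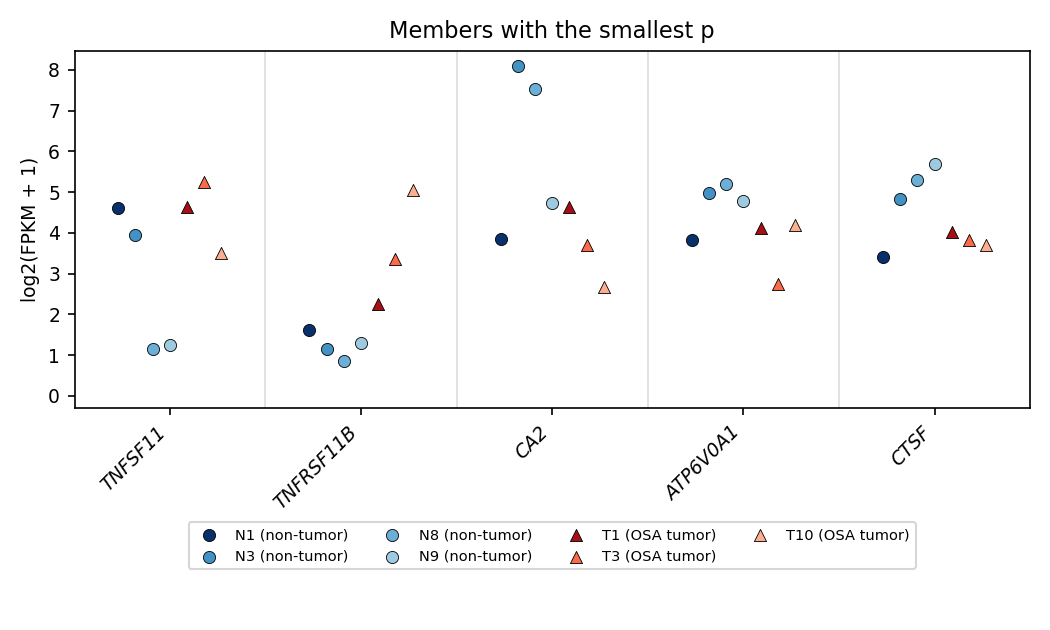
Level of the 5 tested genes with the smallest limma p, as log2(FPKM + 1), in the 4 non-tumor samples (circles) and the 3 OSA tumors (triangles), 1 point per sample. The groups are apart for TNFRSF11B, and CA2 is high in N3 and N8.

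The V-ATPase has a membrane sector, V0, through which protons pass, and a catalytic sector, V1, which splits ATP. Some subunits occur as isoforms, of which a3 (TCIRG1) and d2 (ATP6V0D2) are the osteoclast-type forms. TCIRG1 (chromosome 18, 49784241 to 49793144) had 53.7, 25.6, 24.8 and 12.6 FPKM in N1, N3, N8 and N9 and 119, 16.3 and 8.19 FPKM in T1, T3 and T10. ATP6V0D2 (chromosome 29, 32336302 to 32380452) had 18.6, 11.3, 0.420 and 4.50 FPKM in the non-tumor samples and 35.8, 8.05 and 0.607 FPKM in the tumors. T1 and N1 led for both, and T10 was among the 2 lowest for both. Their log2 fold changes were 0.00 (SE 0.86) for TCIRG1 and 0.30 (SE 1.15) for ATP6V0D2, so neither group was higher beyond the error.

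The ubiquitous isoforms of the same subunits behaved otherwise. ATP6V0A1, the a1 form, had 13.2, 30.6, 35.8 and 26.4 FPKM in N1, N3, N8 and N9 and 16.4, 5.64 and 17.2 FPKM in T1, T3 and T10. ATP6V0A2, the a2 form, had 3.60, 7.11, 10.8 and 10.3 FPKM in the non-tumor samples and 6.0, 7.54 and 9.77 FPKM in the tumors. N1, second highest for TCIRG1, was the lowest sample for ATP6V0A2 and the second lowest for ATP6V0A1. The log2 fold change of ATP6V0A1 was -1.02 (SE 0.55), past the size threshold but with limma p = 0.0983 and exact permutation p = 0.171, and without N1 it was called at -1.31. The interval of ATP6V0A1 was shared with another gene. ATP6V0D1, the d1 form, had 43.1, 62.9, 55.0 and 28.0 FPKM in the non-tumor samples and 68.3, 24.0 and 33.1 FPKM in the tumors.

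By RNA, the isoform shares of the pump genes therefore differed from sample to sample, while protein was not measured. Of the summed FPKM of the 4 a subunits, TCIRG1 made up 71.6, 36.9, 33.8 and 25.0% in N1, N3, N8 and N9 and 81.1, 54.3 and 23.2% in T1, T3 and T10. It was the leading a subunit in N1, T1 and T3, while ATP6V0A1 led in N3 (44.1%), N8 (48.8%), N9 (52.5%) and T10 (48.8%). ATP6V0D2 made up 30.1, 15.2, 0.758 and 13.8% of the d subunit FPKM in the non-tumor samples and 34.4, 25.1 and 1.80% in the tumors, and ATP6V0D1 was the larger in every sample. T3, with a low level of TCIRG1, thus had a high share of it, since ATP6V0A1 was lowest there. ATP6V0A4, the a4 form best known from kidney, made up at most 8.80%.

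**Figure D3:**
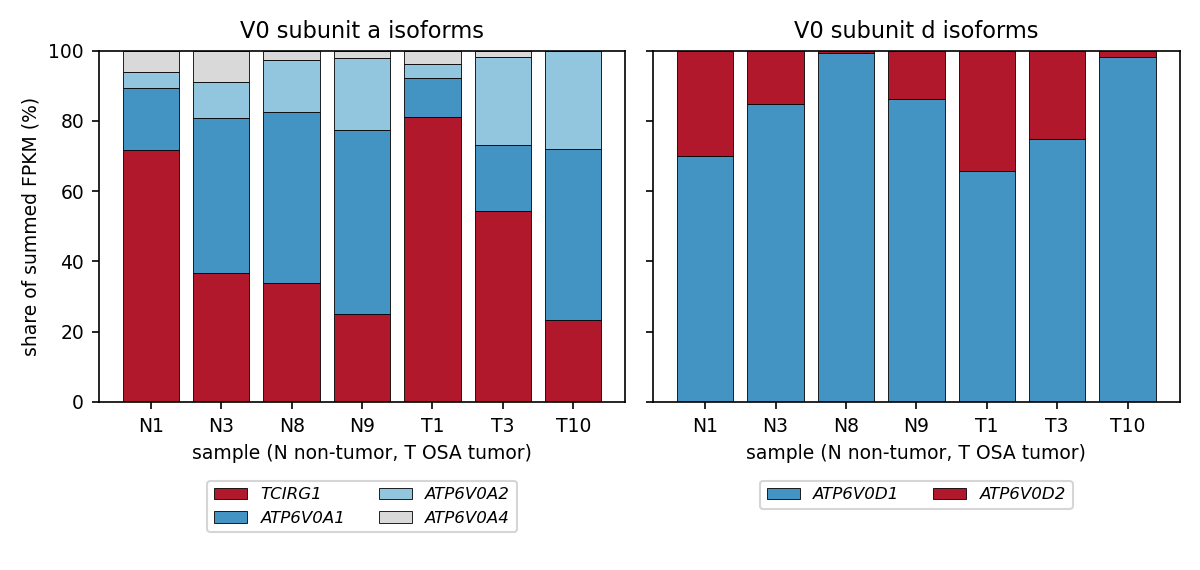
Share of the summed FPKM (y axis, percent) taken by each isoform of V0 subunit a (left) and subunit d (right) in each sample, osteoclast-type forms in red. TCIRG1 takes 71.6% in N1 and 81.1% in T1, and 23.2% in T10.

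Set against its ubiquitous form within a sample, the log2 level of TCIRG1 minus that of ATP6V0A1 was 1.94, -0.25, -0.51 and -1.01 in N1, N3, N8 and N9 and 2.78, 1.38 and -0.99 in T1, T3 and T10. The tumor mean was 1.02 higher (exact permutation p = 0.457), with the groups overlapping over nearly their whole range. For TCIRG1 minus ATP6V0A2 the mean difference was -0.04 (exact permutation p = 0.914), and for ATP6V0D2 minus ATP6V0D1 it was 0.55 (exact permutation p = 0.686). Adjusted over the 4 ratios, each p was 0.914. Leaving out 1 sample at a time moved the difference from 0.16 (without T1) to 2.04 (without T10) for TCIRG1 minus ATP6V0A1.

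The 2 osteoclast-type subunits spanned 3.71 and 4.69 log2 units over the samples, and the 12 tested ubiquitous subunits 0.53 to 2.81, with a median of 1.42. The narrowest was ATP6V1D, the central stalk subunit, which stayed between 30.9 and 44.9 FPKM, and 0.192% of tested genes had a narrower span. The widest was ATP6V0E1, a small membrane subunit, with 477 FPKM in T3 and 67.1 to 194 FPKM in the other 6 samples. No ubiquitous subunit had T1 and N1 as its 2 highest samples, but ATP6V0C had with the FPKM rescaled to the same sum, and ATP6V0C and ATP6V1F had with quantiles. The median log2 fold change was 0.15 for the 2 osteoclast-type subunits and 0.04 for the 12 ubiquitous ones. None of the 16 tested V-ATPase subunits was called, beside 6.86% of all tested genes.

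Within the V0 sector ATP6V0C, the proton-carrying ring subunit, had the highest mean, between 91.7 and 434 FPKM, with its highest value in T1. ATP6V0E1 had the largest positive log2 fold change, 0.75 (SE 0.65). ATP6V0A4, between 0.0697 and 6.10 FPKM, was called lower when T1 was left out (-1.61 in place of -0.84). In the V1 sector ATP6V1F had both the highest level, between 47.0 and 209 FPKM, and the largest positive log2 fold change, 0.78 (SE 0.56, limma p = 0.195, exact permutation p = 0.114). The lowest log2 fold change there was that of ATP6V1B2, the ubiquitous B subunit, at -0.16 (SE 0.50). ATP6V1B2 made up at least 98.9% of the B subunit FPKM and ATP6V1C1 at least 89.7% of the C subunit FPKM in every sample. The other tested subunits were ATP6V0B at 104 to 383 FPKM, ATP6V1A, the catalytic subunit, at 19.7 to 45.9 FPKM, ATP6V1H, a regulatory subunit, at 16.3 to 32.9 FPKM, and ATP6V0E2, a restricted form whose interval was shared by 11 genes, at 3.15 FPKM or less. The log2 fold changes of these 4 lay between -0.12 (ATP6V0B) and 0.43 (ATP6V0E2), each smaller than its SE, and those of ATP6V1C1 and ATP6V1D were 0.32 (SE 0.46) and 0.13 (SE 0.42).

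The 5 V1 genes below the level tested were ATP6V1B1, ATP6V1C2, ATP6V1E2 and ATP6V1G3, which are restricted isoforms and reached at most 2.62 FPKM in any sample, and ATP6V1G1. The last is the ubiquitous G subunit, but its value was 0.113 to 1.74 FPKM. Its interval (chromosome 12, 1046878 to 1048117) was 1240 bases long and lay on another chromosome than the RefSeq gene of that symbol in UU_Cfam_GSD_1.0, so whether this entry measures the subunit is uncertain. The entry CTSC (chromosome 34, 111301 to 112718) had the same limit.

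Across all roles, T1 was the highest sample for 17 of the 43 tested genes (39.5%), against 13.6% of all tested genes. N1 was the highest for none of them, but T1 and N1 were the 2 highest samples for 11 of the 43 (25.6%), against 15.3% of all tested genes. This count was chosen after the values were seen. The 11 were ACP5, ATP6V0D2, CLCN7, CTSK, DCSTAMP, NFATC1, OCSTAMP, OSCAR, SIGLEC15, TCIRG1 and TNFRSF11A, that is 11 of the 16 osteoclast-type genes analysed, the others being TNFSF11, TNFRSF11B, OSTM1, CA2 and SNX10. With the FPKM rescaled to the same sum, by the median ratio or by quantiles, these 11 genes kept T1 and N1 on top, and the count over the group was 14, 11 and 14. T1 and N1 were also the highest samples in summed osteoblast markers, with T1 the highest for 8 of those 9 genes and N1 second for 5 of them. Macrophages share precursors with osteoclasts, and their 11 matched markers summed to 1161 FPKM in N3, 1031 in N8, 556 in T1, 302 in N1 and 82.7 to 276 in the rest. N3 or N8 was the highest sample for each of them except CD68, MSR1 and MARCO. CD68 followed the order of the 11 osteoclast-type genes, with 400 FPKM in T1 and 140 FPKM in N1, and it made up most of the sum in T1. MSR1 was highest in T10 (36.3 FPKM) and MARCO in T3 (17.6 FPKM). N1 and T1 also share the number 1, and whether it marks 1 dog is not stated. The part of cell make-up, or of a shared dog, in the pattern was not tested.

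**Figure D4:**
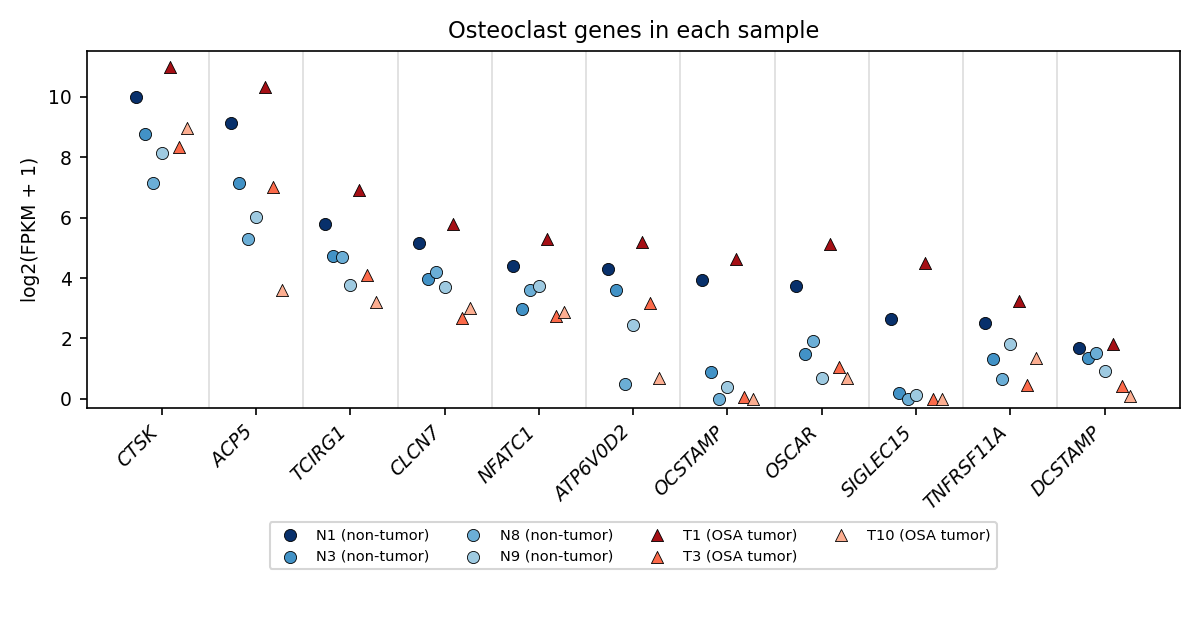
Level of the 11 genes for which T1 and N1 were the 2 highest samples, as log2(FPKM + 1), in the 4 non-tumor samples (blue circles) and the 3 OSA tumors (red triangles), 1 point per sample. The darkest symbols, N1 and T1, lie at the top of each column, and T3 and T10 lie among or below the other non-tumor samples for most genes.

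Among the cathepsins no gene was called, of 12 tested, beside 6.86% of all tested genes. CTSK, described above, was the largest contributor in every sample but N8 and made up 64.5, 25.3, 8.68 and 32.8% of the summed cathepsin FPKM in N1, N3, N8 and N9 and 65.8, 41.1 and 34% in T1, T3 and T10. The sum itself was 1567, 1701, 1616 and 858 FPKM in the non-tumor samples and 3053, 785 and 1465 FPKM in the tumors. N1, N3 and N8 thus had similar totals of which CTSK took very different shares. The sum counted CTSL at 0, held the uncertain CTSC entry and left out 2 entries named CTSL1, described below. Of these, the entry on chromosome X had 36.8 to 58.4 FPKM in non-tumor and 79.8 to 248 FPKM in tumor samples. With it the CTSK shares would be lower. In N8 the leading cathepsin was CTSD, the main aspartic protease of lysosomes, at 24.6%, closely followed by CTSB at 23.1%.

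CTSB, a broadly expressed lysosomal cysteine protease, varied little, between 178 and 375 FPKM (log2 fold change -0.09, SE 0.54). CTSF, also lysosomal, had 9.55, 27.7, 38.3 and 50.6 FPKM in N1, N3, N8 and N9 and 15.1, 13.1 and 12 FPKM in T1, T3 and T10. Except for N1, the non-tumor samples were above the tumors. Its log2 fold change of -0.96 (SE 0.59, limma p = 0.134, exact permutation p = 0.229) was the lowest among the cysteine cathepsins, and without N1 it passed the threshold at -1.43. The interval of CTSF was shared with another gene. CTSD had a log2 fold change of -0.68 (SE 0.66). The remaining tested cathepsins were CTSA, a carboxypeptidase that also protects other lysosomal enzymes, at 44.7 to 185 FPKM, CTSZ at 25.6 to 99.6 FPKM, CTSO at 1.82 to 11.5 FPKM, CTSW, known from cytotoxic lymphocytes, at 0.177 to 3.64 FPKM, and the CTSC entry at 10.1 to 79.0 FPKM. On the log2 scale the changes of these 5 ran from -0.53 (SE 0.56) for CTSW to 0.47 (SE 0.60) for CTSO.

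A different order of samples was seen for CTSS and CTSH, which were singled out after their values were seen. CTSS, which trims the invariant chain in antigen-presenting cells, had 26.1, 212, 183 and 16.5 FPKM in N1, N3, N8 and N9 and 37.7, 40.5 and 215 FPKM in T1, T3 and T10. CTSH, an aminopeptidase, had 16.7, 149, 179 and 17.2 FPKM in the non-tumor samples and 62.4, 41.3 and 137 FPKM in the tumors. N3, N8 and T10 were the 3 highest for both, and N1 and N9 the 2 lowest. The log2 fold changes were 0.10 (SE 1.03) for CTSS and 0.40 (SE 0.95) for CTSH.

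CTSE, an aspartic protease known from immune and red blood cells and the stomach, had 0.136, 52.2, 54.3 and 2.14 FPKM in N1, N3, N8 and N9 and 0.0362, 5.68 and 4.65 FPKM in T1, T3 and T10. N3 and N8 stood far above the rest, and T1 and N1 were the 2 lowest, the reverse of CTSK. The log2 fold change was -1.58 (SE 1.40, limma p = 0.290, exact permutation p = 0.457), and without N1 the gene passed the threshold at -2.63. N3 and N8 had the highest sums of granulocyte, erythroid, macrophage and lymphocyte markers. The 9 T and NK lymphocyte markers summed to 257 in N3 and 159 in N8 and to 3.48 to 33.6 elsewhere, with NKG7 and CD8A listed at 0 in at least 1 sample. The part of these cells in the levels of CTSE, CTSS and CTSH was not tested.

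**Figure D5:**
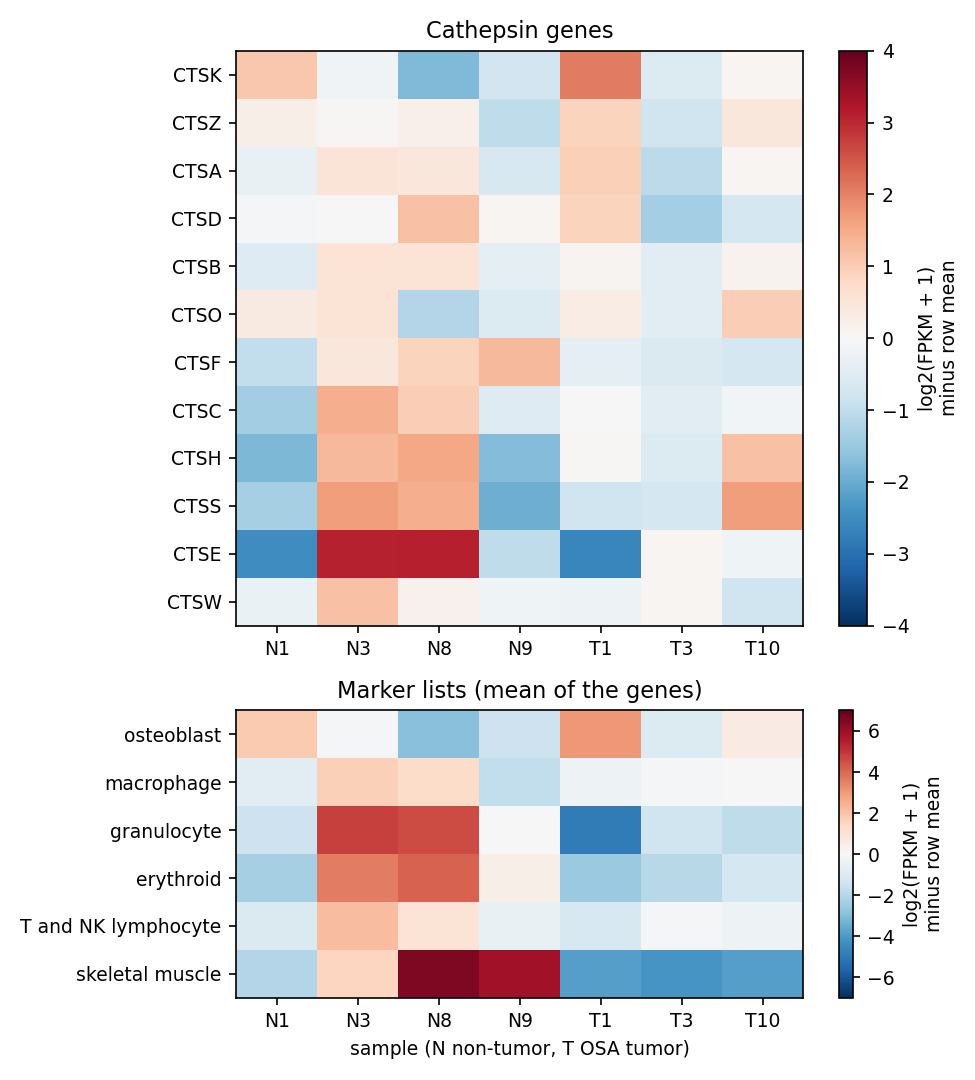
Top, the 12 tested cathepsins, and bottom, 6 lists of cell type markers averaged over their genes, as log2(FPKM + 1) minus the mean of the 7 samples (colour, red above and blue below), with 1 column per sample. CTSK is red in N1 and T1 like the osteoblast list, and CTSE is red in N3 and N8 like the granulocyte and erythroid lists.

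CTSL, the remaining lysosomal protease of wide distribution, was listed at 0 in all 7 samples (ENSCAFG00000001309, chromosome 1, 72215924 to 72219117) and was not tested. The table also held 2 entries under its older symbol CTSL1, which did not meet the definition and were looked up after the values were seen. The entry on chromosome X (ENSCAFG00000015024, 40844074 to 40845468) had 36.8, 45.9, 37.0 and 58.4 FPKM in N1, N3, N8 and N9 and 79.8, 248 and 149 FPKM in T1, T3 and T10. Its log2 fold change was 1.69 (SE 0.52, limma p = 0.00939, exact permutation p = 0.0571, adjusted p = 0.693), and each tumor lay above each non-tumor sample. The entry on chromosome 1 (ENSCAFG00000001149, 69937870 to 69943012) was lower, at 1.09 to 2.98 FPKM in non-tumor and 4.63 to 7.0 FPKM in tumor samples, with a log2 fold change of 1.17 (limma p = 0.0339, exact permutation p = 0.0571). These entries may share reads with each other and with CTSL, so their split is uncertain.

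The LAMP proteins, which line the lysosome membrane, were abundant in each sample and not called. LAMP1 stayed between 107 and 215 FPKM (log2 fold change -0.24, SE 0.48). LAMP2 stayed between 45.5 and 226 FPKM, with its highest value in T10 (log2 fold change 0.48, SE 0.60).

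Genes of the same pathways outside the group were counted beside it. Of 24 further genes of osteoclast formation and function, 2 were called higher and none lower, with a median log2 fold change of -0.25, beside 3.28% of all tested genes called higher and 3.58% called lower. TREM2, a receptor of the myeloid lineage that promotes osteoclast formation, had 4.12, 4.54, 3.24 and 0.689 FPKM in N1, N3, N8 and N9 and 12.6, 9.48 and 22.6 FPKM in T1, T3 and T10 (log2 fold change 1.99, SE 0.57, limma p = 0.00659, exact permutation p = 0.0571), with the groups apart. ITGAV, a chain of the vitronectin receptor that many cells carry, was called at a log2 fold change of 1.42 (SE 0.59, limma p = 0.0394, exact permutation p = 0.114), with T10 the highest at 169 FPKM. The lowest log2 fold change was that of MITF, -1.39 (SE 0.70, limma p = 0.0769, exact permutation p = 0.171).

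Of 33 further lysosomal genes, 1 was called higher and none lower, with a median log2 fold change of 0.23, a share close to the 3.28% of all tested genes called higher. It was ATP6AP2, an accessory protein of the V-ATPase whose symbol falls outside the definition. ATP6AP2 had 68.1, 82.6, 58.0 and 38.7 FPKM in N1, N3, N8 and N9 and 117, 137 and 369 FPKM in T1, T3 and T10, with the groups apart (log2 fold change 1.59, SE 0.56, limma p = 0.0191, exact permutation p = 0.0571). The lowest log2 fold change in that list was -1.23 (SE 0.84) for SORT1. None of 4 cathepsin inhibitors was called. Their log2 fold changes ran from -1.15 (SE 0.83) for CST7 to 1.04 (SE 0.60) for CSTB, and CSTA was listed at 0 in at least 1 sample.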

How the data were processed

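RNA from 4 non-tumor bone and 3 OSA tumor samples was sequenced as stranded, paired-end TruSeq libraries on an Illumina HiSeq. The deposited FPKM per gene and sample were computed by the authors, who trimmed reads with Trim Galore and cutadapt, checked them with FastQC, aligned them to CanFam3.1 with TopHat and quantified them with Cuffdiff, as their methods and processing notes say. Versions and scaling between libraries are not given in the sources used here. All 7 columns were used and 0 per-sample columns were left out. A companion table of the authors' group values, fold changes and p-values was used for its gene intervals, whose start was raised by 1 to count from 1. Where several genes share an interval (9 of the 49 genes), their fragments may not be separable. The 9 were TNFSF11, TNFRSF11A, CLCN7, ATP6V0A1, ATP6V0E2, ATP6V1B1, ATP6V1C2, CTSF and CTSW. Exact zeros were kept as listed and may be failed estimates. FPKM carry no counts, so no counting interval was computed, and values at low relative depth rest on fewer fragments.

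The log2 of FPKM + 1 was fitted with limma 3.58.1 (R 4.3.3, mean-variance trend) on every gene whose mean over the 7 samples reached 1 FPKM, tumor against non-tumor, with Benjamini-Hochberg adjustment over these genes. A fold change on this scale understates the change of low genes. A gene was called where its log2 fold change was 1 or more in size and its p before adjustment was under 0.05. Ratios of genes within a sample were compared by two-sided exact permutation tests over 35 splits (Python 3.11.15, scipy 1.17.1). The fit was tested on simulated data. Figures were drawn with matplotlib 3.10.9.

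The genes, roles and marker lists were chosen with earlier results of these data known. Osteoclast-type genes and the ubiquitous a and d isoforms were given by sample. In each other role the gene with the highest level and those with the largest log2 fold changes were named, and from lists outside the group the called genes and those with the largest log2 fold changes. CTSS, CTSH, CTSC, CTSB, ATP6V1D, ATP6V0C, CTSL1, MMP-9, CSF1, HEXA and CD63 were singled out after their values were seen. Markers without a matching symbol (CD14 and MRC1 of macrophages, ELANE, AZU1 and PRTN3 of granulocytes, HBB and GATA1 of erythroid cells, MYH2 and NEB of muscle, ALPL of osteoblasts) were left out, as were ITGB3, IGF2R and CST3. A few results for single genes outside the group are not reported here. For names, 48 of the 49 symbols matched RefSeq (UU_Cfam_GSD_1.0), CTSL being the exception. Alternatives were pseudocounts of 0.1 and 0.01, no filter, a filter of 1 FPKM in 3 samples, 3 rescalings, no trend, sample weights (arrayWeights), a replicate block and leaving out each sample.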

Additional observations from a re-analysis of the deposited data

Results flagged for a closer look

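In the 4 non-tumor samples, the highest or lowest value was set apart from the others by Dixon's gap test on log2(FPKM + 1). Chance passes this test in about 1 of 20 groups of values. Gaps are shares of the range on that scale, while levels are given in FPKM. Of 47 groups tested, 3 passed. SIGLEC15 was high in N1 (5.27 FPKM, against 0 to 0.148 in N3, N8 and N9), with a gap of 0.925 of the range. CTSD was high in N8 (398 FPKM, against 168, 172 and 186 in N1, N3 and N9), with a gap of 0.882. CTSZ, a carboxypeptidase of lysosomes, was low in N9 (25.6 FPKM, against 55.0 to 63.3), with a gap of 0.843.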

How the results depend on the processing

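TNFRSF11B kept its call under every alternative run except the fixed replicate block (1.42). The fixed replicate block used only N1, N3, T1 and T3, whose numbers occur in both groups, so it also left out N8, N9 and T10. CA2 kept its direction under all, but lost its call without the filter (-2.38), with quantiles (-2.19) and with the fixed replicate block (-1.81), and also without N3, N8, T3 or T10 (-2.40 to -1.70). The number of called genes in the group was 2 of 43 (6.86% of all tested genes), 1 without the filter (4.19%) or with quantiles (6.72%), 3 with sample weights (13.7%, ATP6V0A1 added), 0 with the fixed replicate block (1.78%), 2 with a random replicate block (7.86%), and 1 to 6 when 1 sample was left out, from 2.68% of all genes without N8 to 14.9% without N1, where the 6 were called. The samples with shared numbers deviated together for N1 and T1 (Pearson r = 0.422 over 13507 genes) and for N3 and T3 (0.211), but with 2 pairs this does not establish that they are paired. Leaving out 1 sample gave ranges of 0.16 to 2.04 for TCIRG1 minus ATP6V0A1, -1.27 to 0.89 for TCIRG1 minus ATP6V0A2, -0.28 to 1.62 for ATP6V0D2 minus ATP6V0D1 and -1.35 to 0.62 for TNFSF11 minus TNFRSF11B.

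Of the log2 fold changes of single genes under the alternatives, 463 kept direction and call, 7 gained a call, 8 lost it (CA2 and TNFRSF11B, as above) and 59 changed sign, each of an uncalled gene. With pseudocounts of 0.1 and 0.01 the sign changed for TCIRG1 (-0.022 and -0.025), TNFRSF11A (-0.0085 and -0.046) and OCSTAMP (-0.32 and -0.97), and with the smaller for SIGLEC15 (-0.44). With the same sum it changed for OCSTAMP (-0.051), NFATC1 (0.11), ATP6V1B2 (0.023) and CTSA (0.18), with the median ratio for CTSA (0.012), and with quantiles for NFATC1 (0.13) and CTSA (0.13). Sample weights changed TCIRG1 (-0.26), SNX10 (-0.19) and ATP6V0A2 (-0.070). The random replicate block changed NFATC1 (0.067) and SNX10 (-0.12), and the fixed replicate block NFATC1 (0.33), SNX10 (-0.34), TNFRSF11A (-0.054), OCSTAMP (-0.076), OSTM1 (-0.042), LAMP1 (0.044) and CTSO (-0.54). Leaving out 1 sample gave ranges across 0 for TCIRG1 (-1.08 to 0.77), ATP6V0D2 (-0.79 to 1.47), ACP5 (-1.61 to 1.77), TNFRSF11A (-0.66 to 0.72), OCSTAMP (-1.27 to 1.13), NFATC1 (-0.87 to 0.40), CLCN7 (-1.40 to 0.15), OSTM1 (-0.082 to 0.30), OSCAR (-1.09 to 1.13), SNX10 (-0.36 to 0.26), ATP6V0A2 (-0.25 to 0.20), ATP6V0D1 (-0.66 to 0.071), ATP6V1B2 (-0.46 to 0.029) and CTSA (-0.50 to 0.51). The causes were not tested. With 4 and 3 samples an exact p under 0.0571 cannot be reached, and genes under 1 FPKM, at the lowest relative depth of 0.543 in N8, are the least certain.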

Other observations

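T1 and N1 also led for some secreted and regulatory genes of osteoclasts that were not in the group, while most of the 24 genes listed had another order. MMP-9, a gelatinase that osteoclasts secrete and that neutrophils carry too, had 550, 322, 248 and 33.9 FPKM in N1, N3, N8 and N9 and 1125, 56.4 and 6.44 FPKM in T1, T3 and T10. CSF1, the growth factor of osteoclast precursors, had 30.3, 17.8, 10.7 and 13.5 FPKM in the non-tumor samples and 73.8, 6.53 and 5.66 FPKM in the tumors. For both T1 was the highest and N1 the second, while T3 and T10 lay near or below the lowest non-tumor sample. Of the 24 genes of the osteoclast list, 5 had T1 highest and N1 second, beside 8.67% of all tested genes. Neither gene was called, with log2 fold changes of -1.34 (SE 1.55) for MMP-9 and -0.19 (SE 0.84) for CSF1. Of the 33 lysosomal genes 9 had that order.

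Some lysosomal genes outside the group had groups that did not overlap without reaching the call threshold. HEXA, a lysosomal enzyme of glycolipid breakdown, lay at 33.6 to 58.3 FPKM in non-tumor and 63.4 to 90.8 FPKM in tumor samples. CD63, a membrane protein of late endosomes, lay at 291 to 481 and 560 to 1487 FPKM. Their log2 fold changes were 0.73 (SE 0.44) and 1.08 (SE 0.60), and 5.85% of all tested genes had groups that did not overlap.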
